A study of Mus musculus with 5 samples.

Results

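Goblet cells that carry 2010109I03Rik were examined among tdTomato+ cells of the mouse small intestine. A barcode was a member when it had more than 1000 detected genes and under 10% mitochondrial UMIs (unique molecular identifiers, each standing for 1 captured RNA molecule), a summed level of Zg16, Fcgbp, Clca1 and Spink4 of at least 1000 UMIs per 10000 UMIs of the cell, a Chgb level under 20 and a 2010109I03Rik level of at least 5. Barcodes with UMIs for 3 or more of the 6 interferon-induced genes Ifit1, Ifit1bl1, Rsad2, Cmpk2, Ddx60 and Slfn4 were kept apart. The rule found 847 of 9451 cells (8.96%, exact binomial 95% interval 8.39 to 9.56%), or 27.9% (26.3 to 29.6%) of the 3034 goblet cells without the interferon genes, and the other 2187 served as the comparison. All intervals of the droplet data cover counting error only. The share among goblet cells moved outside its interval with the filter on genes. It was 36.36% with a minimum of 500 genes and 22.25% with 1500.

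The droplet library pooled cells of 4 untreated mice, 6 weeks old, C57Bl/6J strain, genotype Neurog3-Cre; R26-LSL-tdTomato, in which Cre driven by Neurog3 permanently marks the offspring of endocrine progenitors, so that only goblet cells with a history of Cre activity could enter the sort. Because the mice were pooled in 1 library, the droplet data have no replicates and no test between groups of cells was made. The bulk RNA-Seq came from 6 Cck-Cre; R26-LSL-tdTomato mice (C57Bl/6J, 6 to 8 weeks old), 3 fasted overnight and 3 fasted and then refed Ensure, a liquid diet. From each mouse 1 library was made of tdTomato+ (CCK+) cells and 1 of tdTomato- (CCK-) cells, where Cck-Cre marks cells that use or once used the Cck promoter. The sample titles name CCK+ cells throughout, and the CCK- groups were taken from the cell type labels.

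Goblet cells are secretory epithelial cells that fill granules with the gel-forming mucin Muc2 and with proteins such as Fcgbp, Clca1 and the lectin Zg16, which together form intestinal mucus. They are born in the crypts, move up the villus and are shed at its tip, and their gene expression shifts along this path. 2010109I03Rik, also named Ly6m, belongs to the Ly6 family of small cell surface proteins. Sprr1a encodes a small proline-rich protein of the cornified envelope of skin, and Ido1 the enzyme that opens the ring of tryptophan on the way to kynurenine. Position in the tissue was not measured, so the cells are called 2010109I03Rik goblet cells here.

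Promoter sequences are shown for Sprr1a, the gene with the highest ratio among those that passed a filter on low levels, and for Cldn4, whose level was higher in each bin of 2010109I03Rik level than in the bin before, because each held 2 copies of the letters TGANTCA, the binding motif of AP-1 (Fos and Jun proteins). These are the 250 bases before the RefSeq transcript start in GRCm38.p6, 5′ to 3′ on the gene's strand, with the motif in capitals.
Sprr1a, chr3:92485882-92486131, minus strand: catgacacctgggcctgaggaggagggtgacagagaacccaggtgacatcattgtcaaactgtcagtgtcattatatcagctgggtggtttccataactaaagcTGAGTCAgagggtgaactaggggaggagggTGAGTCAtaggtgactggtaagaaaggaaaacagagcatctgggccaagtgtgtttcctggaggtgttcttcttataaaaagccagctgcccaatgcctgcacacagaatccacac
Cldn4, chr5:134946935-134947184, minus strand: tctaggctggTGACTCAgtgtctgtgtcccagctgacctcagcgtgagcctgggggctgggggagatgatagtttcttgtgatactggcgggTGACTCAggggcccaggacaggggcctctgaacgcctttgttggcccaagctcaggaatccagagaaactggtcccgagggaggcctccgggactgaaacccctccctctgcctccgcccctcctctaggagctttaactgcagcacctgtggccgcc
The motif reads the same on both strands. In windows of 300 bases (250 before the start and 50 after it) it was found in 2565 of 32851 RefSeq promoters (7.81%), and 151 windows (0.46%) held more than 1 copy. Among the genes at least 2-fold higher in 2010109I03Rik goblet cells, described next, 4 of 26 promoters (15.4%) held it, from 3 of 19 matched genes, Sprr1a, Cldn4 and Tmcc3. Of the genes at least 2-fold lower, 1 of 25 promoters (4%) held it. A match shows only that these letters are present.

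2010109I03Rik itself lies on chromosome 15 of GRCm38 from 74876987 to 74897021, on the minus strand. The members were chosen by its level, which is given as a description. It ranged from 5.04 to 336.6 UMIs per 10000 with a median of 17.3, and 491 of the 847 cells held 10 or more of its UMIs, 338 held 3 to 9 and 18 held 2. Of the other goblet cells, 1438 held no UMI of it, 455 held 1, 181 held 2 and 113 held 3 to 9. Pooled over cells its level was 26.9 against 0.791, with 4.10 in free RNA (barcodes of at most 100 UMIs) and 0.875 in cells with enterocyte markers. The rule therefore set a limit on a continuous range. The 57 cells between 5 and 6 had pooled levels of 1.92 for Sprr1a, 11.5 for Ido1 and 5.42 for Guca2a, and the 82 cells between 4 and 5 had 1.63, 14.5 and 10.4.

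The 2 groups of goblet cells were similar in depth. The median was 6560 UMIs in 2010109I03Rik goblet cells and 6805 in the others, with 1380 and 1509 genes and 1.56 and 2.12% mitochondrial UMIs. The gate genes put both groups among goblet cells. Of goblet genes that the rule did not use, Muc2 had 145.5 against 122.8 UMIs per 10000 and Tff3, the trefoil peptide, 1434 against 1323. By their medians, markers of other cells were low and close in both groups. Their median sums were 54.2 against 51.3 for 18 enteroendocrine genes (one of them Chgb, which the rule held under 20 in both groups), 21.3 against 24.5 for 14 enterocyte genes, 60.5 against 68.6 for Paneth cell genes and 1.63 against 1.81 for tuft cell genes. The 11 immune cell genes summed to a median of 0 in both and, pooled over cells, to 0.342 against 0.797, with 1.44 in free RNA and 1 gene at 0 in both groups. Some cells of both groups held far more Paneth cell genes than the median, with a 95th percentile of 858 in members and 887 in the others. Pooled over cells, the Paneth sums were 210 against 240 and the enteroendocrine sums 108 against 119, with 370 and 489 in free RNA. The part of these markers in the differences that follow was not tested. Of the 4 genes named as markers, 2010109I03Rik and Zg16 were used by the rule. The other two, Sprr1a and Ido1, were both higher in the members.

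Sprr1a (chromosome 3, 92483952 to 92485895, minus strand) was at 5.65 UMIs per 10000 in 2010109I03Rik goblet cells and 0.923 in the other goblet cells, a ratio of 6.12 (95% Poisson interval 5.75 to 6.52). It was patchy. The median member had 1.15, the upper quartile was 5.28 and the highest cell reached 115.3. In the other goblet cells the median was 0. After each cell was thinned to 2000 UMIs, which left out no cell of either group, a UMI of Sprr1a was present in 36.4% (33.1 to 39.7%) of members and 9.88% (8.66 to 11.2%) of the others. The unthinned shares were 53.8 and 21.9%. Cells with enterocyte markers, at a median of 8872 UMIs, gave 13.9%, and Chgb cells below the goblet gate, at 3734, gave 8.22%. The members lay above these background shares also after thinning, and their pooled level was above the 1.31 of free RNA.

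Ido1 (chromosome 8) differed less, was detected in nearly all members, and overlapped between the groups. Its pooled level was 16.4 against 8.72, a ratio of 1.88 (1.83 to 1.93), and the per-cell medians were 15 and 6.74, with a lower quartile of 9.31 in members and an upper quartile of 13.3 in the others. Thinned, 91.4% of members and 66.5% of the other goblet cells held its UMIs. The unthinned shares were 99.1 and 86.8%, against 53.4% in cells with enterocyte markers, and free RNA had 10.9 per 10000, above the level of the other goblet cells. Sprr1a and Ido1 were detected together in 35.1% (31.8 to 38.4%) of thinned members and 8.05% (6.94 to 9.27%) of the others. Neither was seen in 7.32 and 31.6%. Zg16, a rule gene, had 2728 against 2209.

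Across 1575 genes with a mean level of at least 0.5 and at least 50 UMIs, 21 (1.33%) were at least 2-fold higher in 2010109I03Rik goblet cells and 28 (1.78%) at least 2-fold lower. The goblet gate and 2010109I03Rik chose the same cells, so these are descriptions. The median ratio of all 1575 genes was 0.888 and 31.7% lay over 1, while the 4 gate genes took up a median of 3485 against 3075 of every 10000 UMIs. With the gate genes left out of the denominator the numbers were 34 and 21, and with ratios taken over the median ratio 28 and 11.

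**Figure D1:**
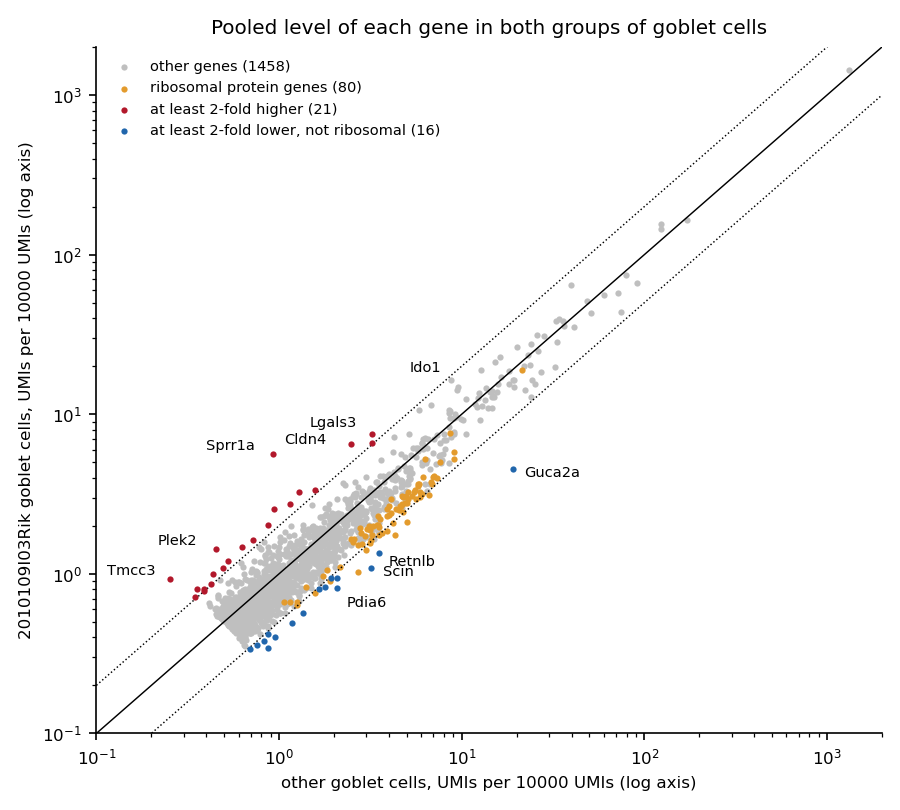
Each point is 1 gene, with its pooled level in other goblet cells (x axis) and in 2010109I03Rik goblet cells (y axis), both in UMIs per 10000 UMIs on log axes, the solid line marking equal levels and the dotted lines a 2-fold difference. Sprr1a at 5.65 against 0.923 stands farthest above the lines, Guca2a at 4.53 against 19.1 farthest below, and the ribosomal protein genes all lie under the solid line.

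The higher genes are given here by what they are known to do, and no test asked whether any role was overrepresented. Of those that bind actin or act on it, Plek2, a pleckstrin family protein of spreading cells, had 1.43 against 0.452 UMIs per 10000, a ratio of 3.16 (2.86 to 3.50). Marcksl1, which binds actin and calmodulin, had 2.56 against 0.936, a ratio of 2.73 (2.54 to 2.94), with 2.37 in Chgb cells below the goblet gate. Lmo7, a protein of adherens junctions, had a ratio of 2.53, the GTPase Rhob 2.32 and the actin-capping protein Capg 2.18.

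Of those at the cell surface, Cldn4, a claudin of tight junctions, had 6.51 against 2.46 UMIs per 10000, a ratio of 2.64 (2.53 to 2.77). Lgals3, the sugar-binding galectin-3, had 7.56 against 3.23, a ratio of 2.35 (2.25 to 2.44), and it was equally abundant in cells with enterocyte markers, at 7.48. Muc3, a membrane-bound mucin, had a ratio of 2.27 (2.08 to 2.47). Its level was 1.62 in members and higher, at 4.04, in cells with enterocyte markers. Cd55, which protects cells from complement, had 2.32.

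The growth factor receptor Egfr had 1.20 against 0.525 UMIs per 10000, a ratio of 2.28 (2.06 to 2.53). Its ligand Areg had 3.37 against 1.56, a ratio of 2.16 (2.03 to 2.29), Hbegf 2.69 against 1.52 (ratio 1.77, 1.66 to 1.89) and Btc 1.02 against 0.759 (ratio 1.34, 1.21 to 1.48). These 3 were the ligands that passed the filter on low levels, of 7 in a list put together after values had been seen. Of the remaining genes, the membrane protein gene Tmcc3 had 0.923 against 0.253, a ratio of 3.65 (3.2 to 4.17). Tmcc3 was at 0.723 in Chgb cells below the goblet gate and 0.868 in Chgb cells within it. The transcriptional coregulator Ifrd1 had a ratio of 2.37, Gch1 of biopterin synthesis 2.35, the retinol dehydrogenase Rdh10 2.24 and the alarmin Il33 2.06. Sfn (14-3-3 sigma) was at 2.03, the TWEAK receptor Tnfrsf12a at 2.02 and the cyclin Ccng2 at 2.02.

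Guca2a, which encodes guanylin, the ligand of guanylate cyclase C, had the lowest ratio of the 1575 genes that passed the filter. On chromosome 4 from 119637704 to 119639471, it had 4.53 UMIs per 10000 in 2010109I03Rik goblet cells and 19.1 in the other goblet cells, a ratio of 0.236 (0.227 to 0.246). Medians per cell were 2.04 and 5.92, and free RNA had 5.80. The actin-severing protein Scin was next, at 1.09 against 3.18, a ratio of 0.344 (0.317 to 0.374). Retnlb, a bactericidal goblet product, had 1.34 against 3.50 (ratio 0.384), and the folding enzymes Pdia6 and Sdf2l1 had ratios of 0.393 and 0.394. Of the 28 lower genes, 12 encoded ribosomal proteins, led by Rpl3 (1.02 against 2.69, ratio 0.379). The mucosal pentraxins Mptx1 and Mptx2, close relatives between which reads may be divided, had 0.422 and 0.419. Sst, a hormone of D cells that was at 9.21 in free RNA, had 0.456.

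Read by gene group, lists were described by the number of members over and under a ratio of 1, beside 31.7% over 1 and a median of 0.888 for all 1575 genes. Of 27 cornified envelope and related genes, 14 passed the filter on low levels and all 14 were over 1, with a median of 1.49 and the lowest at 1.02 (Krt18). The keratin Krt23 had 1.71, and the calcium-binding proteins S100a11 and S100a6 1.69 and 1.62. S100a6 was abundant, at 64.7 against 39.9 UMIs per 10000. Of 19 genes known from the villus tip, 12 passed and 10 were over 1, with a median of 1.13. Krt20, a keratin of mature epithelium, had 14.8 against 9.60 (ratio 1.54, 1.5 to 1.58), and the immediate early gene Ier2 was at 0.891, just above the median of all genes. Of the tip genes below the filter, Ada (adenosine deaminase) had 327 UMIs among members and 394 among the others, 0.551 against 0.256 per 10000. Apoc3 went the other way, with 135 against 453 UMIs, a ratio of 0.773 (0.633 to 0.939). Creb3l3 had 39 against 112 UMIs, a ratio of 0.903 (0.611 to 1.31). Pmp22 had 65 against 8 UMIs, a ratio of 21.1 (10.1 to 50.9). It rests on few UMIs, as do Nt5e (22 and 52) and Slc28a2 (38 and 52).

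For brush border and adhesion, 27 of 32 genes passed and 19 were over 1, with a median of 1.25. The desmosomal cadherin Dsg2 had 1.57, whereas Lgals2 had 66.8 against 91.4 (ratio 0.731) and Cldn15 0.765. Mucin and glycan genes were at the background, with 6 of 17 over 1 and a median of 0.890. Among them the chaperone C1galt1c1, needed for O-glycan extension, had 0.523 and the sialyltransferase St3gal6 0.534. Host defence genes had 4 of 12 over 1 and a median of 0.805, with Saa1 at 1.90 and the dual oxidase factor Duoxa2 at 1.56 above, and the immunoglobulin receptor Pigr at 0.544 below.

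Among 30 goblet genes, 4 of them used by the rule, 23 others passed. 6 were over 1 and 17 under, with a median of 0.787. Muc2 had a ratio of 1.19 and Tff3 of 1.08. Agr2, a disulfide isomerase that mucin folding needs, had 43.5 against 74.7 (ratio 0.583), and the chemokine Ccl6 12.9 against 24.1 (ratio 0.536). Genes of the endoplasmic reticulum were lower as a group. All 24 that passed, of 33, were under 1, with a median of 0.659 and the highest, the translocon subunit Sec61a1, at 0.898, the only one above the median of all genes. Hspa5 (BiP) had 3.65 against 6.32 (ratio 0.578). All 80 ribosomal protein genes that passed were also under 1, and all but 2 lay below the median of all genes, with a median of 0.582, in a list put together after values had been seen. Free RNA held 12.1 UMIs per 10000 of Rpl13, above both groups. Many ribosomal protein genes have near-identical processed copies, so reads of single genes are uncertain.

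Immediate early and stress genes lay above the background, with 13 of 18 over 1 and a median of 1.05. Of interferon gamma and antigen presentation genes 4 of 7 with a median of 1.05, and of cell death genes 4 of 5 with a median of 1.17. The transcription factors had 4 of 11 over 1 and a median of 0.921, close to all genes. Spdef, a goblet factor, was at 1.00, Hnf4a at 1.21, Atoh1 at 0.721 and Cdx1 at 0.649. Of 18 tryptophan genes 3 passed, Ido1 at 1.88, the amino acid transporter subunit Slc3a2 at 0.984 and the synthetase Wars at 0.830. The steps after Ido1 were hardly seen, with 0 UMIs of Kynu in members and 1 in the others, and the same for Kmo. Ion transport genes had 3 of 5 over 1 and a median of 1.00.

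**Figure D2:**
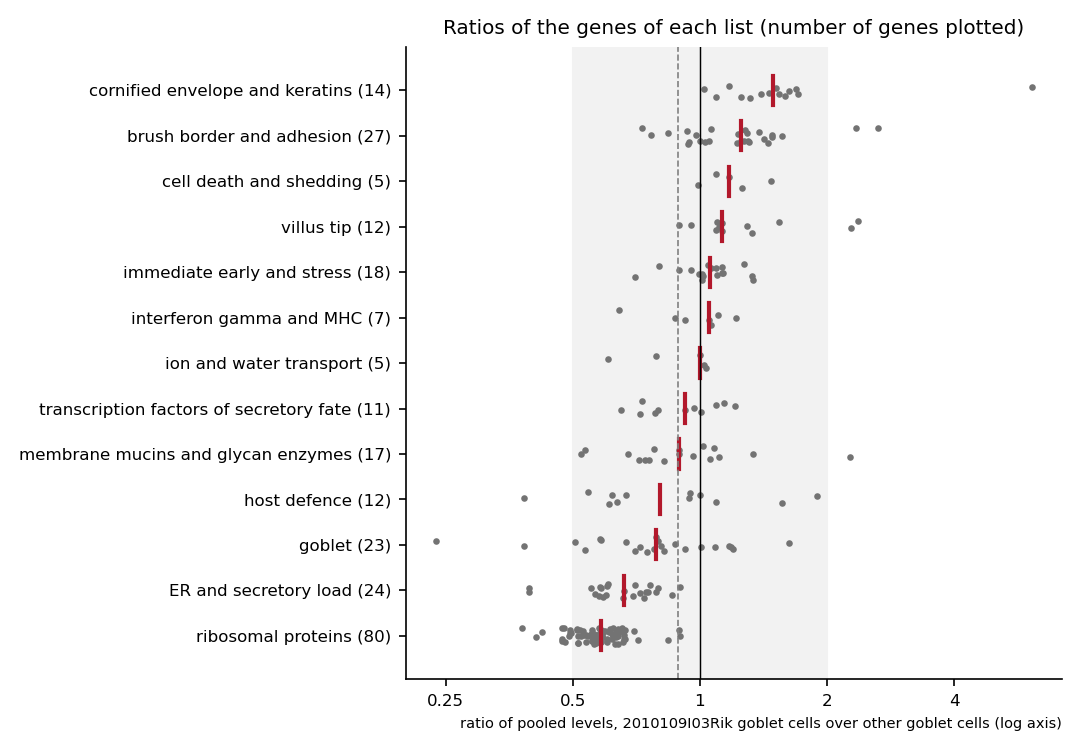
Each point is 1 gene of a list, placed on a log axis by its ratio of pooled level in 2010109I03Rik goblet cells over other goblet cells, with 1 row per list, a red bar at the list's median, a dashed line at the median of all genes and grey shading between ratios of 0.5 and 2. Genes of the list of cornified envelope genes and keratins lie above 1 with a median of 1.49. Endoplasmic reticulum and ribosomal protein genes lie below 1 with medians of 0.659 and 0.582.

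Within the goblet cells most of the higher and lower genes, though not all, moved stepwise with 2010109I03Rik. Cells were placed in 5 bins, with 1438 cells at 0, 749 above 0 and under 5, 234 from 5 to 10, 260 from 10 to 20 and 353 at 20 and over. Sprr1a had 0.725, 1.25, 2.66, 4.44 and 8.67 UMIs per 10000 in these bins, and the last 3 bins all lie inside the members. Ido1 had 7.78, 10.3, 14, 16.4 and 18, and Lgals3 2.92, 3.74, 5.30, 6.86 and 9.68. The highest bin stood at 5.37 times the lowest for Tmcc3, 5.05 for Plek2, 4.30 for Marcksl1 and 3.75 for Cldn4. Guca2a went down from 21.7 to 3.48, Scin from 3.58 to 0.716 and Agr2 from 79.1 to 36.9. Over all 1575 genes, 134 (8.51%) were higher and 388 (24.6%) lower at every step. The first number held 18 of the 21 higher genes, and the second held 19 of the 28 lower genes and 68 of the ribosomal protein genes. The higher genes Gch1, Cd55 and Rdh10 did not rise at every step. Among the lower genes that did not fall at every step were Retnlb, Mptx1, Mptx2, Sst and Ccl5. Ccl5 had 0.657, 1.12, 0.186, 0.166 and 0.674 UMIs per 10000 over the bins. The median mitochondrial share also went down, from 2.21% in the lowest bin to 1.43% in the highest, and its part in the pattern was not tested. Bins and groups share the rule gene, so this is a description.

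**Figure D3:**
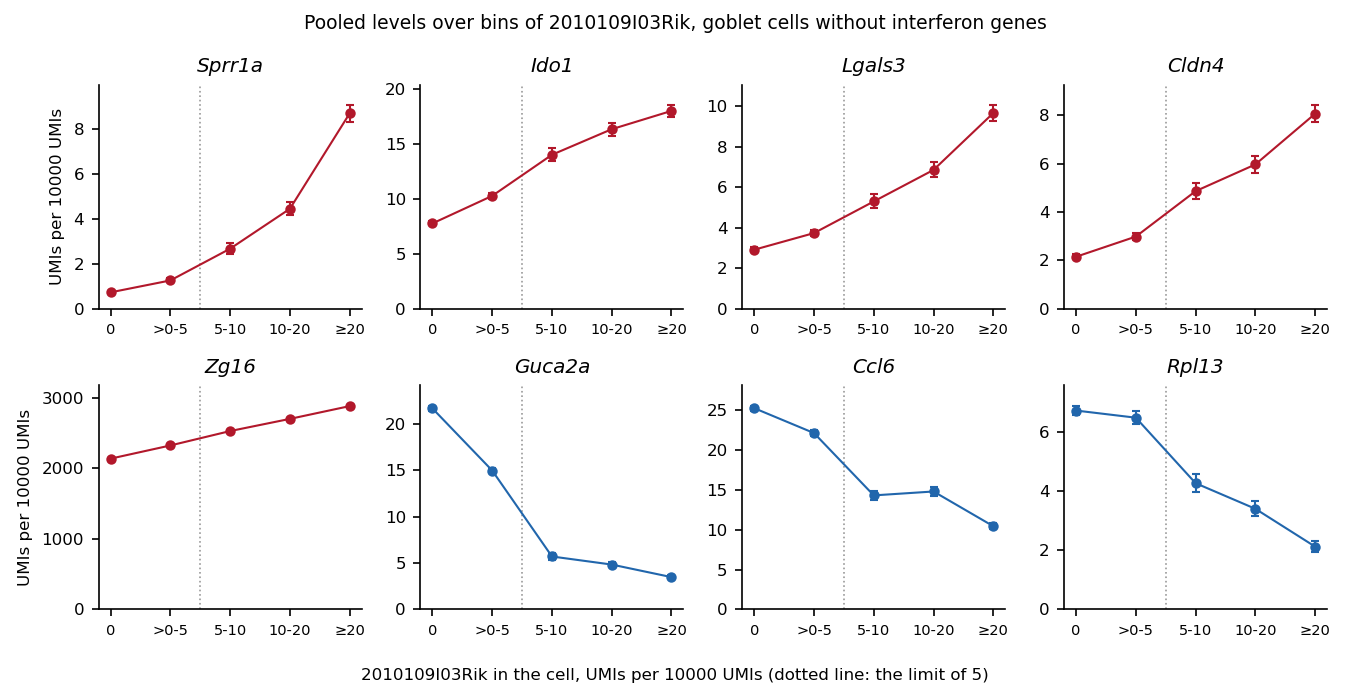
Pooled levels in UMIs per 10000 UMIs, with 95% Poisson intervals, of 8 genes on linear y axes in goblet cells placed in 5 bins of 2010109I03Rik level (0, above 0 and under 5, 5 to 10, 10 to 20, 20 and over). Sprr1a climbs from 0.725 to 8.67 and Guca2a goes down from 21.7 to 3.48.

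The goblet cells kept apart for their interferon genes were split by the same gene and limit as the rule, in the same library. In the 769 interferon goblet cells, 215 (28.0%, 24.8 to 31.3%) had a 2010109I03Rik level of at least 5. There Sprr1a was at 4.04 UMIs per 10000 against 1.5 in the 554 with less, a ratio of 2.70 (2.41 to 3.02), Ido1 at 19.3 against 11.7 and Guca2a at 7.27 against 15.6. All 21 higher genes were over 1 there, beside 34.5% of all genes, and 10 reached 2, beside 0.698%. Of the 28 lower genes 27 were under 1, beside 65.5% of all genes, and 3 were at 0.5 or less, beside 0.317%. The exception was Ccl5, a chemokine, with a ratio of 3.24 there and 0.454 among the members. Some immune cell genes moved with it and others did not, although at few UMIs. Gzma, a granzyme of lymphocytes, had a ratio of 4.52 among interferon goblet cells and 0.437 (129 against 765 UMIs) among the members, and Cd3g of the T cell receptor complex 3.56 and 0.311 (9 against 75 UMIs). Cd8a went the opposite way, with 0.389 among interferon goblet cells and 1.36 (11 against 21 UMIs) among the members. Cd3e was under 1 in both, at 0.817 and 0.463 (5 against 28 UMIs), as was Cd52, at 0 and 0.698 (7 against 26 UMIs). The part of immune cell genes in the Ccl5 values was not tested. The genes were chosen in the same library by the same split and share its free RNA, so this is a description.

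In the 705 cells of the goblet gate with Chgb of at least 20, 213 (30.2%, 26.8 to 33.8%) had 2010109I03Rik of at least 5. All 21 higher genes were over 1 there, beside 42.7% of all genes, and all 28 lower genes were under 1, beside 57.3%. The split again used the gene and limit of the rule, so this too is a description. Outside the goblet gate 2010109I03Rik was rarer. It reached 5 in 4.15% of Chgb cells, 4.72% of cells with enterocyte markers and 3.59% of the remaining cells. Sprr1a in cells with enterocyte markers was at 0.191, and Ido1 at 1.31.

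**Figure D4:**
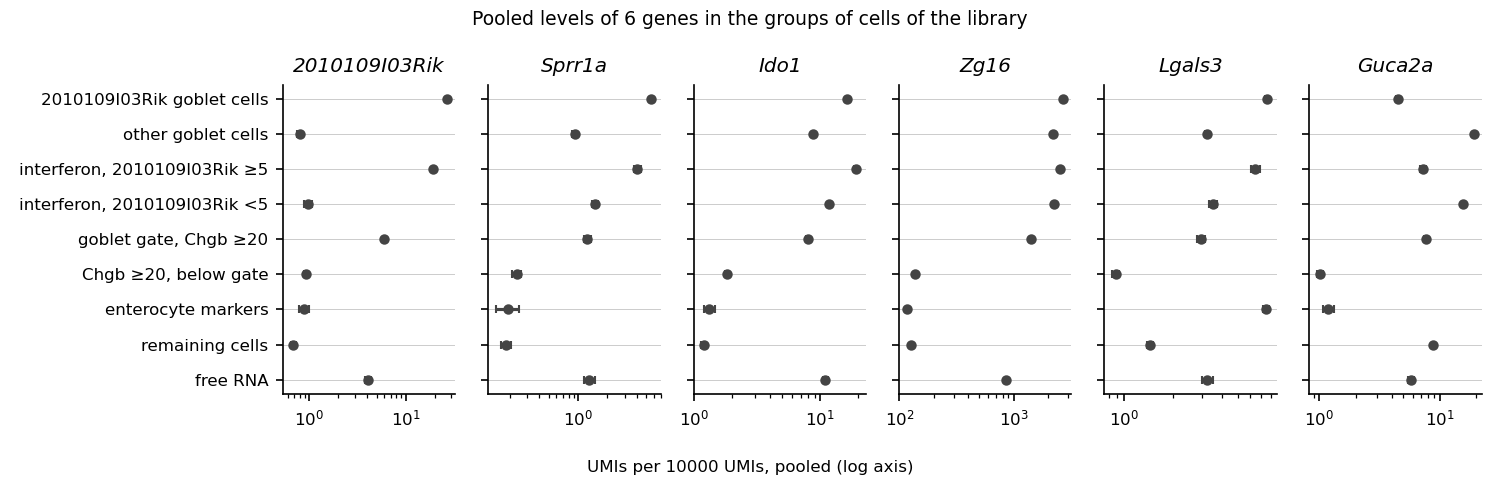
Pooled levels in UMIs per 10000 UMIs, with 95% Poisson intervals, of 2010109I03Rik, Sprr1a, Ido1, Zg16, Lgals3 and Guca2a on log x axes, with 1 row for each group of cells of the droplet library and for free RNA. Sprr1a is at 5.65 in 2010109I03Rik goblet cells, 0.923 in the other goblet cells and 0.191 in cells with enterocyte markers.

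The bulk libraries allowed a test over mice, although of mixed cells. Values are the authors' normalized counts, tested as log2(value + 1) with limma over all 22042 genes with Benjamini-Hochberg adjustment, and in bulk, fewer cells of a type and less RNA per cell cannot be told apart. Enteroendocrine markers were called higher in CCK+ libraries for 18 of 18 genes and enterocyte markers lower for 12 of 14, beside 19.6% and 14.1% of all genes. Neither sort selected goblet cells.

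2010109I03Rik, listed there as Ly6m, had normalized counts of 726, 2070 and 2480 in fasted CCK- libraries and 749, 844 and 1107 in refed ones. In CCK+ libraries it had 594, 2494 and 2997 fasted and 613, 370 and 706 refed. Fasted replicate 1 lay within or below the refed values in both sorts, and the groups overlapped. The log2 difference of refed against fasted was -0.80 (SE 0.53, limma adjusted p = 0.635) in CCK- and -1.60 (SE 0.53, limma adjusted p = 0.138) in CCK+ cells. Without fasted CCK+ replicate 1 the latter was -2.33 (limma adjusted p = 0.032), so 1 library decides that call.

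Sprr1a and Ido1 did not pass the test of refeeding in either sort. Sprr1a had 43.3, 107 and 48.0 normalized counts fasted and 56.6, 95.4 and 201 refed in CCK- libraries. The CCK+ libraries had 26.0, 74.1 and 71.8 fasted and 67.3, 48.8 and 131.5 refed, so the ranges overlapped in both (log2 0.75 and 0.54, limma adjusted p = 0.672 and 0.666). Ido1 had 224, 264 and 222 fasted and 313, 260 and 266 refed in CCK- libraries, and 58.5, 42.5 and 209 fasted and 130, 85.0 and 119 refed in CCK+ libraries. Its log2 difference was 0.24 and 0.44 (limma adjusted p = 0.918 and 0.646). Without fasted CCK+ replicate 3 the CCK+ value was 1.12 (limma adjusted p = 0.0412). Ido1 was lower in CCK+ than in CCK- libraries, by a log2 difference of -1.44 (SE 0.30, limma adjusted p = 0.00155). Zg16 ranged from 1557 to 4505 over the 12 libraries. It passed no test of refeeding, and its log2 difference of -0.51 between CCK+ and CCK- libraries (limma adjusted p = 0.0635) passed without fasted CCK- replicate 3 (limma adjusted p = 0.0257) or fasted CCK+ replicate 3 (limma adjusted p = 0.013).

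**Figure D5:**
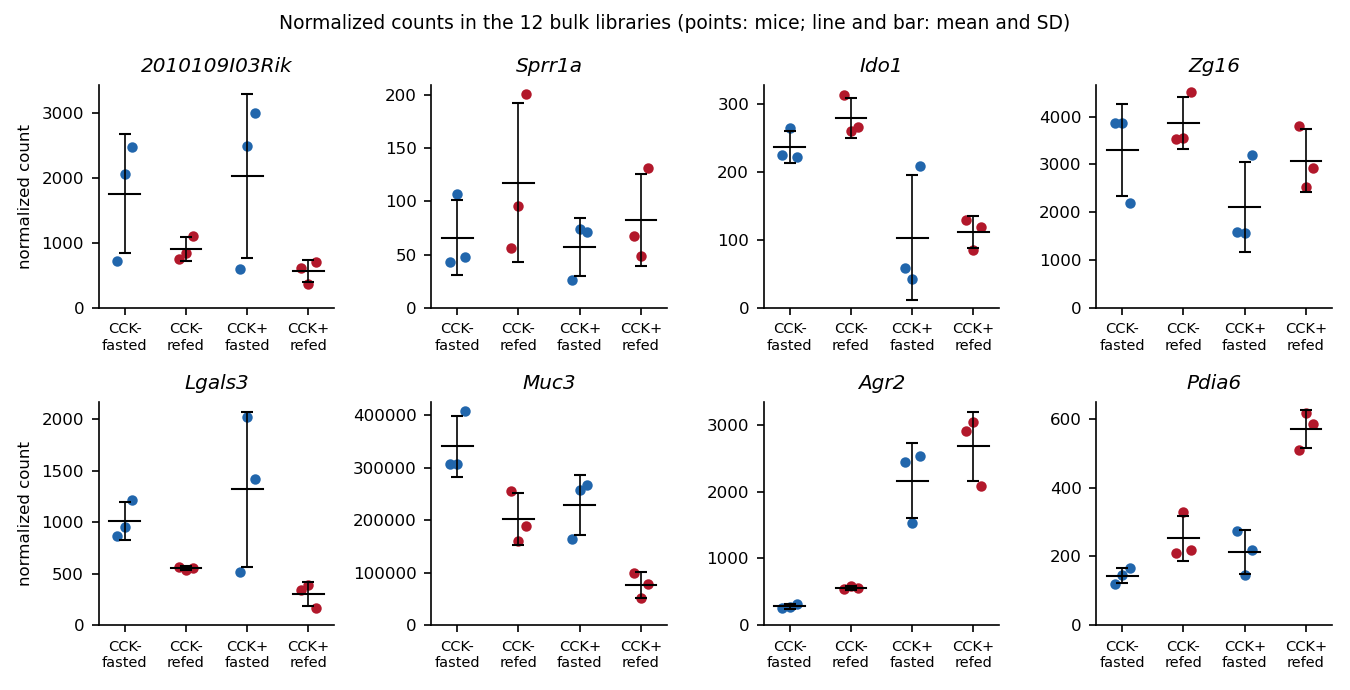
Normalized counts (linear y axes) of 8 genes in the 12 bulk libraries, as 1 point per library for fasted (blue) and refed (red) mice in CCK- and CCK+ cells, with the group mean as a line and the SD (n = 3) as a bar. 2010109I03Rik overlaps between fasted and refed in both sorts, whereas Lgals3 is lower in all 3 refed CCK+ libraries (168 to 390) than in the fasted ones (518 to 2018).

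Of the 21 higher genes, 3 were called in a test of refeeding, all of them lower in CCK+ cells. In CCK- cells 0 of the 21 were called in either direction, beside 0.708% of all genes called higher and 0.526% lower. In CCK+ cells 0 were called higher and 3 lower, Lgals3, Muc3 and Ccng2, beside 1.31% and 1.23%, and the median of the 21 was -0.11 against 0.01 for all genes. Lgals3 had 518, 2018 and 1424 normalized counts in fasted CCK+ libraries and 338, 390 and 168 in refed ones, with no overlap. It fell by 2.02 on the log2 scale (SE 0.40, limma adjusted p = 0.0167). In CCK- libraries it had 861, 953 and 1216 fasted and 568, 533 and 558 refed, also apart, with a log2 difference of -0.85 (limma adjusted p = 0.417).

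Muc3 had 163400, 256500 and 266300 normalized counts in fasted CCK+ libraries and 99540, 51130 and 77530 in refed ones, again apart. It fell by 1.61 on the log2 scale (SE 0.37, limma adjusted p = 0.0350), and Ccng2 fell by 1.15 in the same cells (SE 0.18, limma adjusted p = 0.00596). Lgals3 and Muc3 are also genes of enterocytes, whose markers had a median log2 difference of -0.48 in refed CCK+ cells with 3 of 14 called lower, and their part was not tested. When only the 6 CCK+ libraries were fitted, 0 genes were called, with limma adjusted p = 0.247 for Lgals3, 0.315 for Muc3 and 0.119 for Ccng2. Without the mean-variance trend these calls were lost as well, with limma adjusted p = 0.0929 for Lgals3, 0.0565 for Muc3 and 0.0573 for Ccng2. With a pseudocount of 8 the Muc3 call was lost too (limma adjusted p = 0.0838). The Lgals3 call was also lost without refed CCK- replicate 2, fasted CCK+ replicate 2 or 3, or any refed CCK+ replicate (limma adjusted p = 0.0510 to 0.129). Muc3 lost its call without any single CCK- library, fasted CCK+ replicate 2 or 3, or refed CCK+ replicate 2 or 3 (limma adjusted p up to 0.199), and Ccng2 without refed CCK+ replicate 2 (limma adjusted p = 0.0583).

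Of the 28 lower genes, none was called lower after refeeding and 4 were called higher in at least 1 sort. In CCK- cells these were Scin and Eml4, beside 0.708% of all genes, and in CCK+ cells Eml4, Pdia6 and Sdf2l1, beside 1.31%. Of the markers of other secretory cells, 0 were called in either sort. Of 9 Paneth cell genes, 8 lay above 0 in CCK- cells (median log2 difference 1.1) and 9 in CCK+ cells (1.35), and of 18 enteroendocrine genes 7 in CCK- cells (-0.30) and 18 in CCK+ cells (0.58). Their part was not tested. Eml4, a microtubule-binding protein, had 258, 272 and 255 normalized counts in fasted CCK- libraries and 569, 654 and 602 in refed ones. The groups lay apart, and it rose by a log2 difference of 1.21 (SE 0.16, limma adjusted p = 0.00187). In CCK+ cells it rose by 0.80 (SE 0.16, limma adjusted p = 0.0187). The CCK- call held in every alternative fit, and the CCK+ call was lost without fasted replicate 2 or refed replicate 2 or 3 (limma adjusted p up to 0.0817).

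Scin had 635, 534 and 682 normalized counts in fasted and 918, 1435 and 1518 in refed CCK- libraries, a log2 difference of 1.04 (SE 0.19, limma adjusted p = 0.0187). Pdia6 had 274, 146 and 218 in fasted and 510, 616 and 585 in refed CCK+ libraries, a log2 difference of 1.46 (SE 0.24, limma adjusted p = 0.00689). Sdf2l1 rose by 1.24 in CCK+ cells (SE 0.23, limma adjusted p = 0.0146). In all 3 cases the fasted and refed values did not overlap. The Scin call was lost without fasted CCK- replicate 1 or 2, refed CCK- replicate 2 or 3 or refed CCK+ replicate 2 (limma adjusted p up to 0.119). That of Pdia6 was lost without refed CCK+ replicate 2 or 3 (up to 0.0727 by limma), and that of Sdf2l1 without fasted CCK+ replicate 2 or any refed CCK+ replicate except the third (up to 0.0871 by limma). When only the libraries compared were fitted, limma adjusted p was 0.184 for Scin, 0.122 for Pdia6, 0.116 for Sdf2l1 and 0.155 for Eml4 in CCK+ cells. Without the mean-variance trend the same 4 calls were lost as well, with limma adjusted p of 0.0552 to 0.123.

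Guca2a, the lowest gene of the droplet comparison, had 207, 252 and 173 normalized counts in fasted CCK+ libraries and 106, 95.5 and 94.3 in refed ones, which did not overlap. The log2 difference of -1.07 (SE 0.27) just missed the threshold (limma adjusted p = 0.0517), and it passed without fasted CCK- replicate 3 (limma adjusted p = 0.019). In CCK- libraries it had 323, 282 and 144 fasted and 132, 149 and 174 refed, overlapping, with -0.64 (limma adjusted p = 0.353). Among 30 goblet genes, 1 was called higher in CCK- cells (beside 0.708% of all genes) and 0 in CCK+ cells (beside 1.31%), and 23 of the 30 lay above 0 in each sort, with medians of 0.17 and 0.35. The called gene was Agr2, with 254, 264 and 319 fasted and 535, 582 and 548 refed, a rise of 1.00 (SE 0.20, limma adjusted p = 0.0297). That call held only without fasted CCK+ replicate 2 or refed CCK+ replicate 3 among the fits with 1 library left out, with limma adjusted p up to 0.157, and it was lost when only the CCK- libraries were fitted (limma adjusted p = 0.0599) or without the mean-variance trend (limma adjusted p = 0.154). The difference between the sorts in the response to refeeding was called for 1 of 22042 genes (1378 at an unadjusted p under 0.05), and limma adjusted p was at least 0.723 for the genes named here.

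Between the sorts, 5 of the 21 higher genes were higher and 8 lower in CCK+ than in CCK- libraries, beside 19.6% and 14.1% of all genes. Cldn4 had 160 to 513 normalized counts in CCK- and 798 to 1402 in CCK+ libraries, without overlap, a log2 difference of 2.09 (SE 0.23, limma adjusted p = 9.0e-06). Marcksl1 was higher by 2.90 (limma adjusted p = 1.38e-06), while Areg was lower, at -1.26 (limma adjusted p = 8.9e-04). Of the 28 lower genes, 19 were higher and 3 lower in CCK+ libraries, with a median log2 difference of 0.93 against 0.09 for all genes. With the enteroendocrine markers at a median of 6.25 between the same libraries, the part of goblet cells in these differences was not tested.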

How the data were processed

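The droplet UMI counts were deposited by the authors as a gene by barcode matrix, made with Cell Ranger 2.0.1 and mm10. All 475960 barcodes with a UMI (108489965 UMIs) were in the file, so cells were taken by the study's filters, more than 1000 genes and under 10% mitochondrial UMIs. Applied to all barcodes, these filters left 9451 cells. The study reported fewer cells both before and after the same filters, so the shares given here are not shares of its cell set. That depth gave members a median of 6560 UMIs. Levels are pooled UMIs per 10000 with exact Poisson intervals, and shares have exact Clopper-Pearson intervals at 95%. No doublets were removed in the main analysis. Positions came from the GRCm38 annotation and promoters from RefSeq. The bulk values are a signal, the normalized counts that the authors deposited after Trim Galore 0.6.7, Salmon 1.6.0 with Ensembl release 105 transcripts of GRCm39, tximeta and DESeq2. Their steps gave no whole reads (40.5 to 55.1% of values came out whole within 0.01), so no count test was run and read depth is unknown. They sum to 7061155 to 11371114 per library. limma 3.58.1 was fitted to log2(value + 1) with 4 group means and a mean-variance trend, with p-values adjusted by Benjamini-Hochberg over 22042 genes and a threshold of 0.05. The script was tested on simulated data. CCK+ and CCK- libraries came from the same mice, whose deviations from the group mean correlated at 0.0773 to 0.124. Other pairs had -0.0826 to -0.0184. Taking deviations from the group mean ties these 2 ranges together, so the second is not a separate comparison. Named genes were the 4 markers, the 15 highest and 15 lowest ratios and the members of the lists given. The members and lists were chosen with earlier results of these data known, and the ribosomal and ligand lists after values were seen. Alternatives changed the cell filters, gate, limits, denominator, pseudocount, low-value filter, samples fitted and single libraries. Whether the bulk counting used strand is not given in the sources used here.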

Additional observations from a re-analysis of the deposited data

How the results depend on the processing

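The share of members among goblet cells was 36.36% with a minimum of 500 genes and 22.25% with 1500. The number of member cells also depended on the limits. It was 3065 with a minimum of 500 genes, 317 with 1500 genes, 790 with a goblet gate of 2000, 1039 with a 2010109I03Rik limit of 3, 613 with a limit of 10, 1062 with the interferon cells included and 787 with cells called by the Cell Ranger 2 rule (at least 3892 UMIs). Lower genes numbered 13 with 500 genes, 56 with a gate of 500, 13 with a gate of 2000, 17 with a limit of 3, 16 with the interferon cells and 11 over the median ratio, chosen after seeing the data. Higher genes numbered 34 with the gate genes out of the denominator. For Ido1 and the 15 highest and 15 lowest ratios, none of 496 refits changed the direction, although 128 moved by more than their counting error. Genes with ratios between 0.888 and 1, such as Ier2, lie over 1 when taken over the median ratio. Leaving out the 715 cells with the highest Scrublet scores (7.57%) removed 17 members, and its automatic threshold called 0 cells.

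Refeeding called 272 genes in CCK- and 561 in CCK+ cells, against 66 and 119 without the mean-variance trend and 63 and 0 when only the libraries compared were fitted. With 1 library left out the ranges were 79 to 268 and 103 to 876, and 6520 to 7618 for CCK+ against CCK- (7431 with all). The block on mouse gave 7671 there, and among named genes moved only the calls of Plek2 and Rhob. Refed and fasted mice differ, so no block was possible between them. With 1 library left out these log2 differences changed direction. In CCK- cells the ranges were -0.0087 to 0.40 for Zg16, -0.13 to 0.41 for Muc2, -0.16 to 0.039 for Tmcc3, -0.46 to 0.15 for Marcksl1, -0.21 to 0.10 for Lmo7, -0.16 to 0.14 for Rhob, -0.47 to 0.045 for Egfr and -0.15 to 0.019 for Rdh10. In CCK+ cells they were -0.014 to 1.12 for Ido1, -0.33 to 0.14 for Tmcc3, -0.12 to 0.24 for Cldn4 and -0.11 to 0.44 for Ifrd1. For CCK+ against CCK- they were -0.59 to 0.055 for 2010109I03Rik, -0.0081 to 0.22 for Tmcc3, -0.18 to 0.19 for Capg and -0.13 to 0.034 for Sdf2l1. The cause of these changes was not tested.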
